A study of Mus musculus with 298 samples.

Results

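The expression table held the transcripts of neuropeptide Y (Npy) and of 3 of its receptors, Npy1r, Npy2r and Npy5r, and these 4 of 16892 genes were taken by name and followed through every one of the 298 cells. Each library was 1 polyadenylated transcriptome of a single cell from the mouse thoracic sympathetic ganglion, captured on a microfluidic C1 chip. All mice carried Wnt1-Cre and R26R-Tomato, so there was no untreated or wild-type control group. Wnt1-Cre is a driver of the neural crest lineage, from which sympathetic neurons, satellite glia and Schwann cells all arise, so the reporter does not by itself single out neurons. The labels left 85 cells Unclassified and gave every other cell one of 8 identities. Noradrenergic3 was the most frequent, with 48.4% of these named cells, followed by Noradrenergic2 (39 cells), Noradrenergic5 (23), Noradrenergic4 (18) and Noradrenergic1 (10), while the cholinergic identities Ach1 and Ach2 had 8 cells each and the Glutamatergic identity had 4. The mice were 11 to 38 days old, 207 cells came from females and 91 from males, and the cells fell into 10 collections of 1 sex and 1 postnatal day on 24 chips. Nothing in the labels says how many mice a collection pooled or how the identities were assigned. If identities were drawn from these transcriptomes, a p-value between them is no independent evidence of a difference.

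Neuropeptide Y is a peptide cotransmitter that postganglionic sympathetic neurons package in dense-core vesicles and release with noradrenaline. It constricts blood vessels and enhances the action of noradrenaline on them. Its Y receptors couple to inhibitory G proteins of the Gi and Go class, which lower cyclic AMP, close calcium channels and open inwardly rectifying potassium channels. The Y1 receptor, encoded by Npy1r, is the main vascular receptor on target cells, the Y2 receptor, encoded by Npy2r, is best known as a presynaptic autoreceptor that limits release, and the Y5 receptor, encoded by Npy5r, is best known for its role in feeding in the hypothalamus. In noradrenergic sympathetic neurons Npy is a classic marker of vasoconstrictor cells, while many cholinergic sympathetic neurons carry vasoactive intestinal peptide (Vip) in its place.

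In GRCm38 with the GENCODE M21 annotation, Npy lies at chr6:49822710-49829507 on the plus strand with 4 exons, and Npy2r at chr3:82538383-82548084 on the minus strand. Npy1r, at chr8:66697192-66706792 on the plus strand, and Npy5r, at chr8:66679965-66688128 on the minus strand, are neighbours that are read away from each other, with 9064 bases between their starts. None of the 4 genes overlapped another annotated gene. The 250 bases before the start of Npy and of Npy2r are shown because Noradrenergic5 cells were poor in Npy but held most of the Npy2r counts. They are from RefSeq on GRCm38.p6, at chr6:49822460-49822709 on the plus strand and chr3:82548086-82548335 on the minus strand, 5′ to 3′. Capitals mark matches, on either strand, to any of 5 short motifs, namely the E-box (CANNTG), the core of the cyclic AMP response element (TGACG), the homeodomain core (TAAT), the GATA factor core (GATAA) and the AP-1 core (TGACTC).
Npy: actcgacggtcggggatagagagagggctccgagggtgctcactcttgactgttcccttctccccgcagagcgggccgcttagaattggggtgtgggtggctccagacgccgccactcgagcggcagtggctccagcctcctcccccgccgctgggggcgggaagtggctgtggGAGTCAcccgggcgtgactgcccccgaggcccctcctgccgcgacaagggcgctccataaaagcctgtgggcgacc
Npy2r: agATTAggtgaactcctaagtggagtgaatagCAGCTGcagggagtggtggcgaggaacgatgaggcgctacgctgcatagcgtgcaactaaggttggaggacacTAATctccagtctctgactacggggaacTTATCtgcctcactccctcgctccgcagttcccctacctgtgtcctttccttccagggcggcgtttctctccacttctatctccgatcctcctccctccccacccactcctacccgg
The Npy window held a single match, to TGACTC, which 15.3% of all 32851 promoter windows of 300 bases held. The Npy2r window held 1 E-box, 2 matches to TAAT and 1 to GATAA, which 72.3%, 58.03% and 25.4% of the windows held. All of these are short motifs that many promoters contain, and a match is not a shown binding site.

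The shallowest cell had 7225 counts, the median cell 33099 and the deepest 81589, and levels are given below as counts per 10000 counts of the cell. The labels could be checked against marker genes. The summed level of 5 noradrenergic genes (Th, Ddc, Dbh, Slc18a2 and Slc6a2) had a median per cell of 88.7 to 119.5 in the 5 noradrenergic identities, against 23.6 in Ach1, 11.9 in Ach2 and 7.15 in Glutamatergic cells. A rule chosen after seeing the data picked out cholinergic cells with 0 counts of both Chat and Slc18a3 and Glutamatergic cells with more than 10 counts of Th, and 2 cells met it. One Ach1 cell from the P31 female collection had no count of Chat, which makes acetylcholine, or of Slc18a3, the vesicular acetylcholine transporter, but 112 counts of Vip and 61 of Th. One Glutamatergic cell from the P33 female collection had 313 counts of Calca and 122 of Tac1, both sensory peptide genes, and also 130 of Th, the first enzyme of catecholamine synthesis, so it held both sets of markers. These were also the Ach1 cell and the Glutamatergic cell with the most Npy. Ach1 cells with 57 and 46 counts of Th but 0 of Npy held Slc18a3, at 6 and 3 counts, and were not picked out. Results that the 2 cells touch are given with and without them. A list of 14 satellite glia and Schwann cell genes had a median summed level of 28.6 in Ach1, 31.2 in Ach2, 30.9 in Glutamatergic and 26.3 in Unclassified cells, against 5.28 to 9.84 in the noradrenergic identities, so glial transcripts were higher beside low Npy in the cholinergic cells. Of the 13 list genes tested between cholinergic and noradrenergic cells, Pmp22 and Sostdc1 rose and Gfra3 fell. Erbb3 and Gfra3 were at 0 in Ach1 cells, and the part of glial transcripts in the results was not tested.

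Npy separated the noradrenergic identities into cells that all held it in abundance and cells in which it ranged from none to abundant. Every Noradrenergic2 cell and every Noradrenergic3 cell held Npy. In the 39 Noradrenergic2 cells the lowest, median and highest levels were 84.1, 159.1 and 234 counts per 10000, and in the Noradrenergic3 cells they were 34.2, 122.8 and 234. Npy made up 1.53% of all counts in Noradrenergic2 cells. Over collections the level averaged 158 ± 13.3 in Noradrenergic2 and 132.5 ± 14.7 in Noradrenergic3 (SD, n = 7 each). These were the only 2 identities in which no cell came near 0.

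**Figure D1:**
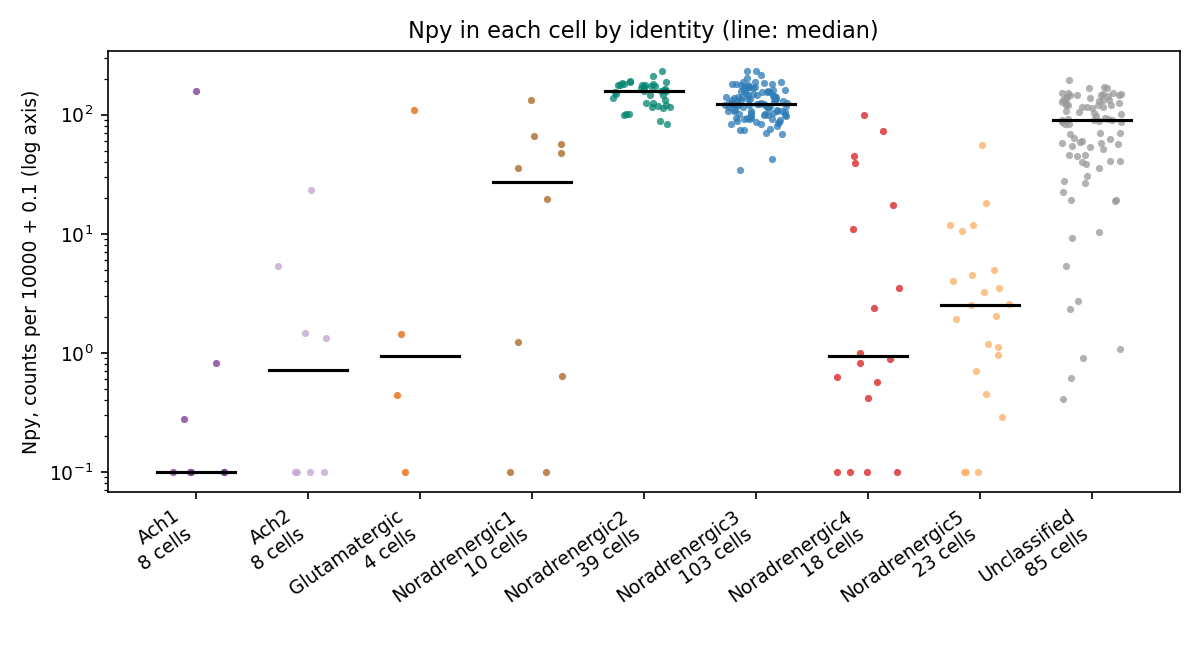
Npy in every cell, as counts per 10000 plus 0.1 on a log axis, with 1 point a cell and a line at the median of each identity. The Noradrenergic2 and Noradrenergic3 clouds sit between 34.2 and 234, whereas Ach1, Noradrenergic4 and Noradrenergic5 spread from 0 up to 157, 99.99 and 55.8.

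Noradrenergic1 held a broad range. Its lowest, median and highest cells were at 0, 27.3 and 133 counts per 10000, and 8 of 10 cells had a count. By collection it was at 23.7 in P29 males, 0 in P30 females (1 cell), 40.2 in P30 males, 64.02 in P31 females and 20.9 in P38 males. Every collection of Noradrenergic1 was below the lowest collection of Noradrenergic3, at 112.

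Noradrenergic4 cells ran from 0 through a median of 0.844 to 99.99 counts per 10000, with a count in 14 of 18 cells. Their collections were at 0.471 in P11 females, 3.35 in P30 females, 5.43 in P31 females, 82.0 in P33 females and 18.6 in P38 males. The P33 female value, from 2 cells, stood far above the rest. Noradrenergic5 cells ran from 0 through a median of 2.42 to 55.8, with a count in 20 of 23 cells. Their collections were at 2.04 in P11 females, 0.462 in P29 males, 3.88 in P30 females, 4.60 in P31 females, 1.25 in P33 females and 55.8 in P34 females. The P34 female value was a single cell, and the other 22 Noradrenergic5 cells all lay below the lowest Noradrenergic3 cell. Noradrenergic4 and Noradrenergic5 nonetheless held the noradrenergic genes at a median summed level of 119.5 and 116.0, against 117.2 in Noradrenergic3.

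Npy had a count in 7 of 16 cholinergic cells. Among 8 Ach1 cells 3 had a count, at 1, 1 and 586 counts, and the cell with 586 was the one without Chat and Slc18a3. Among 8 Ach2 cells 4 had a count, at 3, 7, 10 and 65 counts. The 65 counts were in the single P16 female cell, at 23.3 counts per 10000. Of the 4 Glutamatergic cells, 3 had 0 to 3 counts and the fourth, the cell with 130 counts of Th, had 555 counts or 109 per 10000. By the collection means the order of identities was Noradrenergic2, Noradrenergic3, Glutamatergic (36.6 ± 62.4, n = 3), Noradrenergic1 (29.8 ± 23.9, n = 5), Noradrenergic4 (21.97 ± 34.3, n = 5), Noradrenergic5 (11.3 ± 21.8, n = 6), Ach1 (8.35 ± 21.7, n = 7) and Ach2 (6.54 ± 11.2, n = 4), all as mean ± SD over collections. Pooled over cells, the lowest levels were 3.54 in Ach2, 6.27 in Noradrenergic5 and 19.4 counts per 10000 in Ach1. Between the 7 pairs of neighbours in this order, edgeR's quasi-likelihood test gave adjusted p between 0.389 and 1, so it called no neighbours apart. All identities share the same estimate of spread in this fit. These p-values therefore do not measure the spread of a pair's own collections. In single cells, a level at or above that of the lowest Noradrenergic3 cell was reached by 5 of 10 Noradrenergic1, 4 of 18 Noradrenergic4, 1 of 23 Noradrenergic5, 1 of 8 Ach1, 0 of 8 Ach2 and 1 of 4 Glutamatergic cells.

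The spread of Npy within an identity followed the same division. The coefficient of variation over cells was 0.23 in Noradrenergic2 and 0.30 in Noradrenergic3, where counting error alone gives 0.04 and 0.05. It was 1.18 in Noradrenergic1, 1.78 in Noradrenergic4 and 1.94 in Noradrenergic5. Within Noradrenergic3 the level was weakly related to the cell's total counts (Spearman's rho 0.14 over its cells, which share libraries and chips, given as a description).

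Npy counts of the cells of 1 identity and collection were summed into 44 libraries, and these were fitted with edgeR over 11555 genes with the collection as a block. Npy differed among the 8 identities (adjusted p = 0.00288, with 10.4% of all genes called), a call that was lost without the P29 male collection (adjusted p = 0.0827). In the single contrasts Npy passed the threshold of an adjusted p of 0.05 in 0 of 8, with 4 of 8 at an unadjusted edgeR p under 0.05 and 2 of 8 called by DESeq2. Of all genes, edgeR called 4.57% for cholinergic and 2.63% for Glutamatergic against noradrenergic cells and 0.138% for Ach1 against Ach2. For each noradrenergic identity against the other 4 it called 1.74% for Noradrenergic3, 1.64% for Noradrenergic2, 1.41% for Noradrenergic5, 1.39% for Noradrenergic1 and 1.25% for Noradrenergic4. Noradrenergic2 and Noradrenergic3 were higher than the other noradrenergic identities by 3.12 (SE 0.87) and 2.87 (SE 0.81) on the log2 scale, with adjusted p of 0.0718 and 0.0699 and unadjusted p of 0.00127 and 0.0014. Noradrenergic5 differed by -4.19 (SE 1.42, adjusted p = 0.22, with DESeq2 0.0217 where 0.796% of all genes were called) and Noradrenergic4 by -1.57 (SE 1.19, adjusted p = 0.756). Noradrenergic1 differed by -0.23 (SE 1.17, adjusted p = 1.00), a value whose sign did not hold in other settings. Pooled over cells, however, Noradrenergic1 held 2.71-fold less Npy than the other noradrenergic identities, and it was lower in 4 of 4 shared collections. The fit weights the other 4 identities equally, whereas pooling weights them by their counts. With each chip as a replicate, Noradrenergic2 and Noradrenergic3 rose and Noradrenergic5 fell, with adjusted p of 0.000628, 0.000147 and 0.0295, where 1.98%, 2.82% and 1.58% of all genes were called. Several chips came from the same collection, so p-values with chips as replicates do not measure the spread between collections. Without the P34 female collection, whose only Noradrenergic5 cell held Npy, the adjusted p of Noradrenergic2 and Noradrenergic3 were 0.0441 and 0.0324. They were 0.0425 and 0.0253 without the P31 female collection, and that of Noradrenergic3 was 0.0414 without the P33 female collection.

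Set against each other in pairs within the same fit, the identities rich in Npy were told apart from some of the poor ones. Of 28 pairs of identities edgeR called Npy in 3, with 9 at an unadjusted p under 0.05. Noradrenergic3 was above Noradrenergic5 by 5.65 on the log2 scale (SE 1.48, adjusted p = 0.0356), where 2.22% of all genes were called. Noradrenergic2 was above Ach1 by 5.16 (SE 1.34, adjusted p = 0.0228), where 4.17% were called, and Noradrenergic3 was above Ach1 by 4.96 (SE 1.34, adjusted p = 0.0254), where 4.77% were called. Noradrenergic2 over Noradrenergic5, at 5.85, missed the threshold (adjusted p = 0.0515). DESeq2 gave adjusted p of 0.00091, 2.37e-05 and 4.41e-05 for these 3 pairs. The pairs were chosen because edgeR had called them on the same counts. DESeq2's share over all genes is not given here for them, so its calls are not read as separate support. The call of Noradrenergic3 over Noradrenergic5 was lost with no replicate block (0.161) and without the P11 female, P29 male, P30 female, P33 female or P38 male collection (up to 0.227). Both calls over Ach1 were lost without the P16 female, P29 male, P30 female or P38 male collection (up to 0.121 and 0.129), and that of Noradrenergic3 over Ach1 with no replicate block (0.0513). Both were also lost with libraries of at least 2 cells. That setting leaves Ach1 only its P31 female library, which holds the cell without Chat and Slc18a3, so it cannot test these calls. In the cholinergic and Glutamatergic comparisons below, it likewise leaves Ach1 only that library and Glutamatergic only its P29 male library.

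Most directions of the fit were the same within collections. Noradrenergic4 over Noradrenergic5 held in 2 of 4 shared collections and Ach1 over Ach2 in 0 of 4. Noradrenergic5, below Ach1 in the fit, was above it in 3 of 4. Noradrenergic3 lay above the other noradrenergic cells in 7 of 7 shared collections. Noradrenergic5 lay below the other noradrenergic cells in 6 of 6, and Noradrenergic1 in 4 of 4. Noradrenergic3 exceeded Noradrenergic5 in 6 of 6 shared collections and Noradrenergic4 in 5 of 5. Noradrenergic2 exceeded Noradrenergic3 in 5 of 5, by a mean of only 0.22 on the log2 scale. In an exact two-sided sign-flip test, chosen after seeing the data, over shared collections, p was 0.0313 for Noradrenergic3 over Noradrenergic5 and 0.0625 for Noradrenergic2 over Noradrenergic3, each the smallest that the number of collections allows, and no pair of the 15 compared was below 0.170 after Benjamini-Hochberg adjustment.

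**Figure D2:**
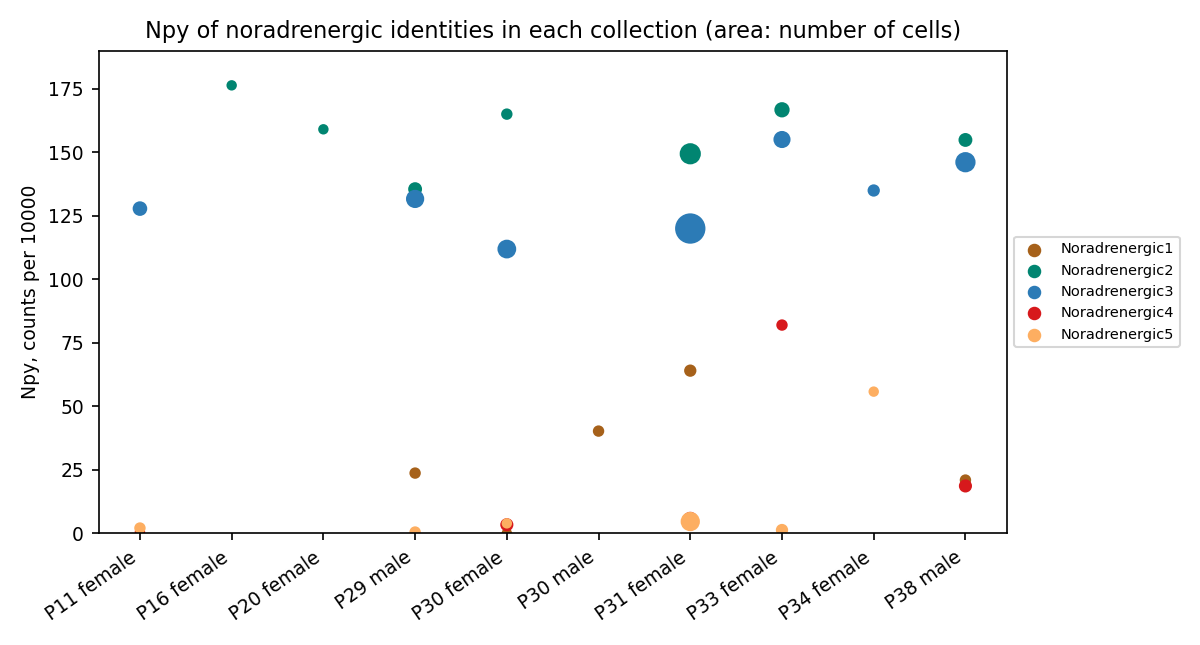
Npy level (counts per 10000 of the summed counts) of each noradrenergic identity in each collection, ordered by age, with the area of a point growing with its number of cells. Noradrenergic2 and Noradrenergic3 stay between 112 and 176, and the highest points of the other identities are Noradrenergic4 in P33 females at 82.0, Noradrenergic1 in P31 females at 64.02 and Noradrenergic5 in P34 females at 55.8.

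Cholinergic cells as a whole held 673 Npy counts or 12.4 per 10000, against 78562 counts or 107 per 10000 in noradrenergic cells, and were lower in 7 of 7 shared collections. The edgeR difference was -2.75 on the log2 scale (SE 1.01, adjusted p = 0.148). Without the Ach1 cell that lacked Chat and Slc18a3 it was -6.55 (adjusted p = 0.000143), without the Glutamatergic cell with Th -2.94 (adjusted p = 0.0662), and without the P31 female collection, which held that Ach1 cell, it was -6.35 (adjusted p = 0.000872). DESeq2 also called it, at -3.52 (adjusted p = 0.00165, with 4.65% of all genes called). Ach1 and Ach2 differed by 0.18 (SE 1.80, adjusted p = 1.00), and the sign did not hold. It was -1.01 with DESeq2 and -5.89 without that Ach1 cell, and Ach1 was below Ach2 in 4 of 4 shared collections. Glutamatergic cells differed from noradrenergic cells by -1.16 (SE 1.51, adjusted p = 0.808), and by -6.87 (adjusted p = 0.203) without the Glutamatergic cell with Th.

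Neither sex nor age was seen to move Npy within Noradrenergic3, at the precision of 7 collections. Male collections averaged 138.9 ± 10.2 (SD, n = 2) and female collections 129.9 ± 16.5 (SD, n = 5), an exact two-sided permutation p of 0.571 where 0.0952 was the smallest possible. The edgeR difference of male over female Noradrenergic3 cells was 0.07 on the log2 scale (adjusted p = 1.00). Against age, from postnatal day 11 to 38, log2 Npy gave Pearson's r = 0.33 (exact permutation p = 0.475) and Spearman's rho = 0.61 (exact permutation p = 0.167) over 7 collections, and r = 0.57 (exact permutation p = 0.35) over 5 without the 2 farthest in age. Sex and age each came from a handful of collections, and only male collections of 29 and 38 days held Noradrenergic3 cells. Across 14 chips with at least 3 Noradrenergic3 cells the level ran from 107 to 178.

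The receptor transcripts were present at single counts per cell, and the share of cells with a count therefore depends on depth. Of the 193 noradrenergic cells, 113 had a count of at least 1 of the 3 receptors, and of the 16 cholinergic cells none had, which allows a share of cells with a count of up to 18.8%. Where 0 cells had a count, the limit given is 3 cells of the total, and it limits cells with a count, not cells that express the gene. Other intervals for shares are exact (Clopper-Pearson) 95% binomial intervals and cover counting error only.

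**Figure D3:**
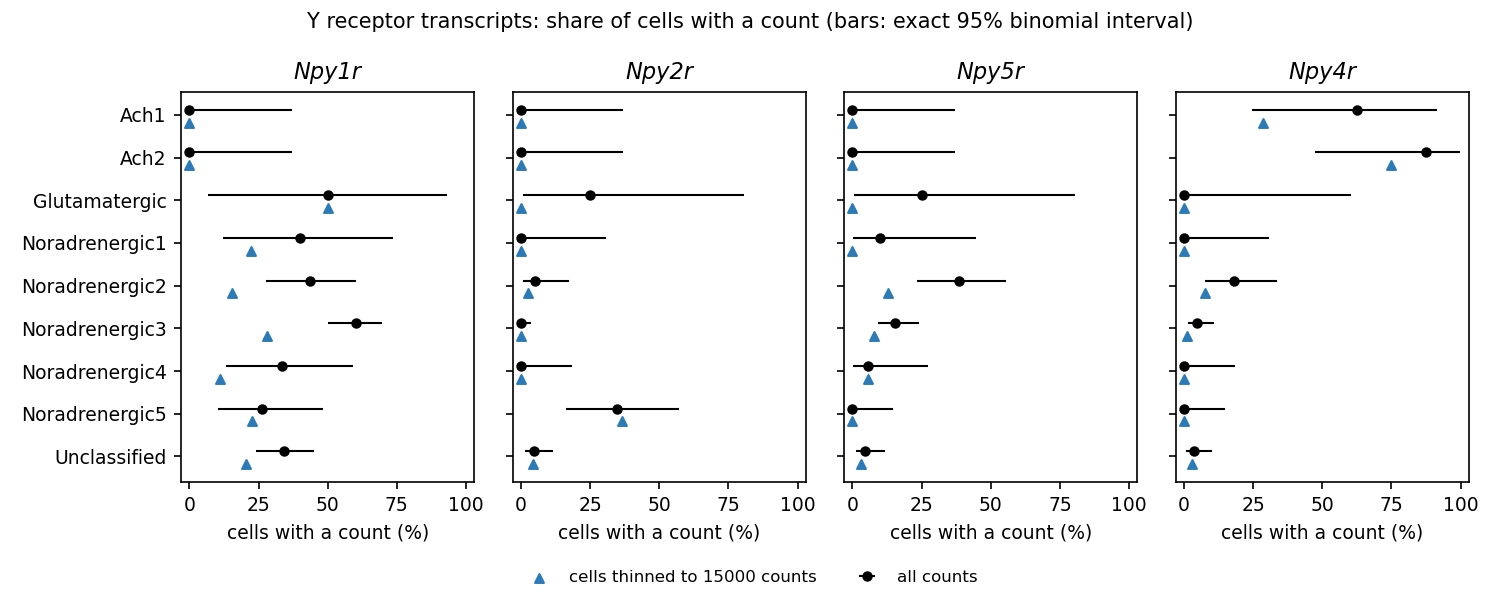
Share of cells with at least 1 count of Npy1r, Npy2r, Npy5r and, for comparison, Npy4r, by identity. Black points with exact 95% binomial intervals use all counts, and blue triangles use cells thinned to 15000 counts. Npy1r is at 60.2% of Noradrenergic3 cells with all counts but 28.2% after thinning, while Npy2r in Noradrenergic5 is at 34.8% and 36.4%. Thinning was 1 random draw that left out shallow cells, and most Noradrenergic5 cells with Npy2r had a single count. The Npy2r shares therefore do not show that its detection is free of depth.

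Npy1r was the most widely held receptor. It had a count in 62 Noradrenergic3 cells (60.2%, interval 50.1 to 69.7%), 17 of 39 Noradrenergic2 cells (43.6%, 27.8 to 60.4%), 4 of 10 Noradrenergic1 cells, 6 of 18 Noradrenergic4 cells and 6 of 23 Noradrenergic5 cells (26.1%, 10.2 to 48.4%). With cells thinned to equal depth the shares were 28.2% in Noradrenergic3, 22.7% in Noradrenergic5, 22.2% in Noradrenergic1, 15.4% in Noradrenergic2 and 11.1% in Noradrenergic4. The collection means were 0.196 ± 0.0930 counts per 10000 in Noradrenergic3 (SD, n = 7) and 0.154 ± 0.139 in Noradrenergic2 (SD, n = 7). Noradrenergic3 was above the other noradrenergic cells in 7 of 7 shared collections, but its edgeR difference of 0.93 (SE 0.38) had an adjusted p of 0.304. In the same contrast 2 of 3 tested smooth muscle and pericyte genes rose (Rgs5 and Myh11), and the list's summed level ran from 0 to 15.3 in Noradrenergic3 cells with all 5 genes counted, while Acta2 and Myh11 were at 0 in the other 4 noradrenergic identities. Also risen were the fibroblast genes Col3a1 and Lum, 2 of 5 tested, with a list sum from 0 to 98.9. The endothelial gene Flt1, the only 1 of its list tested, rose too, with a list sum from 0 to 9.80. Of the satellite glia and Schwann cell list only Gfra3 rose, 1 of 13 tested, with a list median of -0.07 on the log2 scale. The granin genes Chga and Chgb, 2 of 4 tested of the chromaffin list, also rose. The part of these transcripts in the Npy and Npy1r levels was not tested.

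Npy1r was the only member called between cholinergic and noradrenergic cells, 1 of 4 members where 4.57% of all 11555 genes tested were called and 2.4% were called lower. Cholinergic cells had 0 counts of Npy1r in 16 cells, against 145 counts in 95 of 193 noradrenergic cells. Against a floor of 3 counts over the cholinergic cells, Npy1r was at least 3.58-fold lower there, with an edgeR adjusted p of 0.0078. The call was lost without the P31 female collection (adjusted p = 0.0753), with DESeq2 (0.166), with cells thinned (0.23) and with libraries of at least 2 cells (0.258). In Glutamatergic cells 7 of 8 Npy1r counts were in 1 cell of the P31 female collection, and the difference from noradrenergic cells, at 1.99 on the log2 scale (SE 0.73), had an adjusted p of 0.153. It was called without the Glutamatergic cell with Th (2.48, adjusted p = 0.0429) and was 0.26 without the P31 female collection (adjusted p = 1.00).

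Npy5r, the divergent neighbour of Npy1r, was found mainly in the 2 identities rich in Npy. Noradrenergic2 had 19 counts in 15 of 39 cells (38.5%, 23.4 to 55.4%) and Noradrenergic3 had 20 counts in 16 cells (15.5%, 9.15 to 23.997%). Noradrenergic1 and Noradrenergic4 had 1 count each, and Noradrenergic5 had 0 in 23 cells, which allows a share of cells with a count of up to 13.04%. Together, Noradrenergic2 and 3 held 39 counts against 1 in Noradrenergic4 and 5, a ratio of 10.4 per count sequenced with a counting interval of 1.76 to 421. In Noradrenergic2 the collections were at 0.214, 0.220, 0.0835, 0, 0.0899, 0.167 and 0.140 counts per 10000, so that 6 of 7 held it. In Noradrenergic3 they ran from 0 to 0.122. Noradrenergic2 differed from the other noradrenergic identities by 2.15 on the log2 scale (SE 0.68) with an adjusted p of 0.08. It was called with each chip as a replicate (adjusted p = 0.0221) and with no replicate block (adjusted p = 0.0117). Noradrenergic2 cells were also the most deeply sequenced identity, with a median of 43245 counts against 36658 in Noradrenergic3, and after thinning the shares were 12.8% and 7.77%.

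Npy2r was held mainly by Noradrenergic5, an identity poor in Npy. Of its 20 counts in named cells, 16 were in 8 of the 23 Noradrenergic5 cells (34.8%, 16.4 to 57.3%), 3 in 2 Noradrenergic2 cells and 1 in a Glutamatergic cell. It had 0 counts in the Noradrenergic3 cells, which allows a share of cells with a count of up to 2.91%, and 0 in the Noradrenergic1, Noradrenergic4 and cholinergic cells. The Noradrenergic5 collections were at 0 in P11 females, 0.154 in P29 males, 1.45 in P30 females, 0.131 in P31 females, 0.312 in P33 females and 0 in P34 females, in counts per 10000. The P30 female value was a single cell with 6 counts.

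Set against the other noradrenergic identities, Noradrenergic5 had 0.194 counts of Npy2r per 10000, against 0.0046, a ratio of 42.2 with a counting interval of 12.1 to 226. Without the P30 female collection the ratio was 24.6 (6.34 to 139), and without the P31 female collection the other noradrenergic cells had 0 counts, which with 3 counts taken as their floor puts Noradrenergic5 at least 38.9-fold above them. It was higher in 4 of 6 shared collections and equal at 0 in the other 2. The gene passed the filter of 20 counts at exactly 20, 16 of them from Noradrenergic5 itself, so that it had a test only through the identity where it is high. The edgeR adjusted p of 3.45e-07, where 1.41% of all genes were called and 0.788% were called higher, is therefore given as a description. With each chip as a replicate the adjusted p was 0.00384, DESeq2 gave no adjusted p and an unadjusted p of 0.384, and with cells thinned, with libraries of at least 2 cells, without the Glutamatergic cell with Th or without any one of the P29 male, P30 female, P31 female and P33 female collections the gene fell below the filter and had no test. In the same contrast 3 of 5 tested fibroblast genes rose (Lum, Col1a1 and Col1a2), with all 6 genes of the list counted and a summed level from 0 to 20.2, the median being 0.203. Their part in the Npy2r and Npy results was not tested. Noradrenergic5 had at least 24.9-fold more Npy2r than Noradrenergic3, against a floor of 3 counts over the Noradrenergic3 cells, and at least 14.2-fold more without the P30 female collection.

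**Figure D4:**
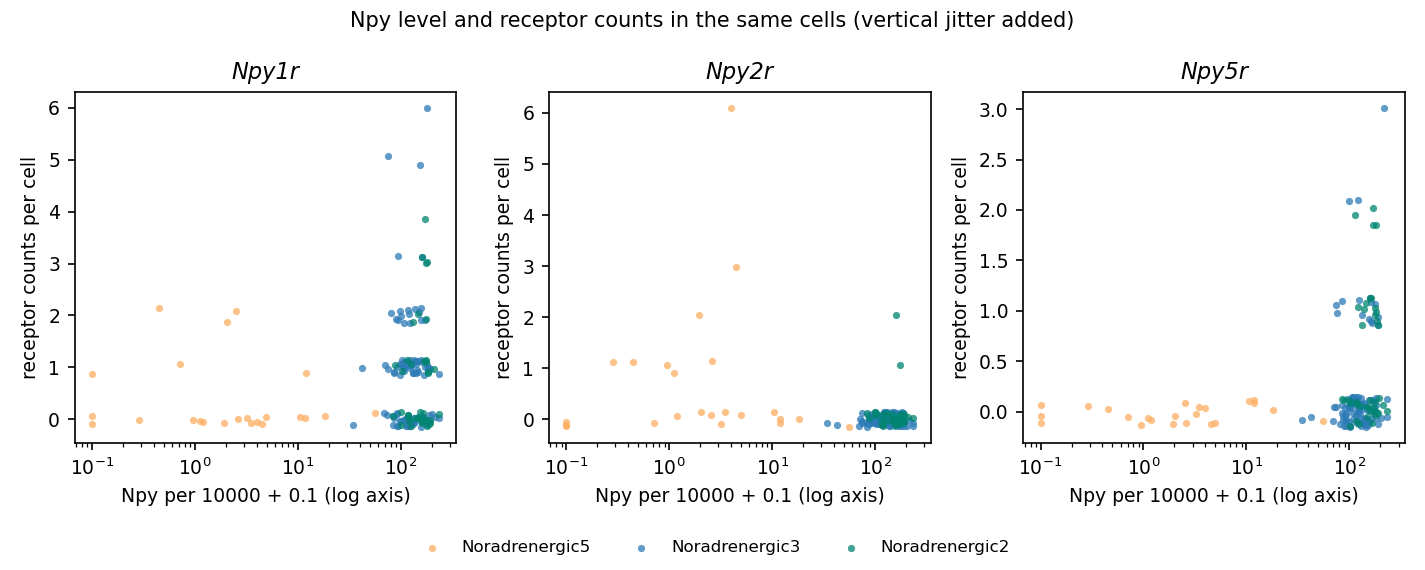
Npy level (counts per 10000 plus 0.1, log axis) and receptor counts in the same cell for Noradrenergic5, Noradrenergic3 and Noradrenergic2, with vertical jitter. The 8 Noradrenergic5 cells with Npy2r lie at 0.187 to 4.39 counts of Npy per 10000. The 15 Noradrenergic5 cells without Npy2r also lie low, at a median of 3.11, and 6 of 23 Noradrenergic5 cells hold Npy1r. Far to the right lie the Noradrenergic2 and Noradrenergic3 cells, among them 2 Noradrenergic2 cells with Npy2r at 159.7 and 176.1.

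Ligand and receptors could be compared within single cells. The 8 Noradrenergic5 cells with Npy2r held Npy at 0.187 to 4.39 counts per 10000 with a median of 1.42, and the 15 without Npy2r at 0 to 55.8 with a median of 3.11. The 2 Noradrenergic2 cells with Npy2r were different, with Npy at 159.7 and 176.1 per 10000 and 3 counts of Npy1r each. In Noradrenergic2, 10 of 15 cells with Npy5r also had Npy1r (66.7%), against 29.2% of the other 24 cells. In Noradrenergic3 the shares were 68.8% of 16 cells with Npy5r and 58.6% of the rest. Cells with Npy5r were deeper, with a median of 45364 counts against 39166 in Noradrenergic2, and the part of depth was not tested. Npy2r and Npy1r met in 1 Noradrenergic5 cell.

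Npy4r, the receptor that prefers pancreatic polypeptide and was not one of the 4 members, ran the other way to Npy1r. It had a count in 12 of 16 cholinergic cells, against 12 of 193 noradrenergic cells, and its edgeR difference was 4.94 (SE 0.71) in log2 units, higher in cholinergic cells (adjusted p = 7.46e-10, and DESeq2 gave none). Npy4r had 22 counts in cholinergic and 15 in noradrenergic cells. It passed the filter of 20 counts only with the cholinergic cells, so this p-value is given as a description. It was at 0 in Noradrenergic1, Noradrenergic4, Noradrenergic5 and Glutamatergic cells. Npy6r had no count in any cell, and peptide YY and pancreatic polypeptide, the other ligands of the family, had no row in the table.

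Genes that mature the peptide and transduce its signal were read from lists. Of 7 prohormone processing genes tested between cholinergic and noradrenergic cells, 1 rose and 2 fell, where edgeR called 4.57% of all genes. Their median difference was 0.05 on the log2 scale, against -0.20 over all genes tested. Pam, which amidates the end of the NPY peptide, rose by 0.67 (SE 0.20, adjusted p = 0.0185). Pcsk2, a convertase that cuts prohormones, fell by 1.84 (SE 0.30, adjusted p = 7.67e-08), and Cpe, which trims the cut ends, fell by 0.69 (SE 0.22, adjusted p = 0.0497). Pam also rose in Noradrenergic2 relative to the other noradrenergic identities, by 0.92 (SE 0.20, adjusted p = 0.000805), and Pcsk2 fell in Noradrenergic1 by 1.45 (SE 0.38, adjusted p = 0.0123). Of these 5 calls DESeq2 kept that of Pcsk2 in cholinergic cells, with adjusted p of 0.0514 and 0.152 for Pam and Cpe there, 0.477 for Pam in Noradrenergic2 and 0.178 for Pcsk2 in Noradrenergic1. Pcsk2 in cholinergic cells was lost with libraries of at least 2 cells (0.206) and Cpe with DESeq2's size factors in edgeR (0.166) and with 6 of 10 collections left out in turn, without a change of direction in either. Pam in cholinergic cells kept its call in 4 of 10 other settings, with adjusted p of up to 0.39 with libraries of at least 2 cells, and lost it without the P16 female, P30 female or P31 female collection (0.13, 0.214 and 0.0886), Pam in Noradrenergic2 without the P29 male collection (0.249), and Pcsk2 in Noradrenergic1 without the P30 female, P31 female or P38 male collection (0.0582, 0.352 and 0.0854). In the contrasts of Noradrenergic3, Noradrenergic4 and Noradrenergic5 edgeR called 0 of 7 processing genes, with 1, 3 and 2 at an unadjusted p under 0.05 and 0 called by DESeq2 in each.

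Of 5 Gi and Go subunit genes edgeR called 0 between cholinergic and noradrenergic cells, with 3 at an unadjusted p under 0.05 and 0 called by DESeq2. Between Glutamatergic and noradrenergic cells, and for Noradrenergic4, edgeR called 0 of 5, where it called 2.63% and 1.25% of all genes. DESeq2 called 1 of 5 in each, and its share over all genes is not given here, so that count is not read as a result. Among 11 effector genes, Adcy5, an adenylyl cyclase that Gi inhibits, had 9 counts in 4 Glutamatergic cells and 8 counts in 16 cholinergic cells. It passed the filter mostly through these cells, so its adjusted p of 1.62e-09 in Glutamatergic and 0.00288 in cholinergic cells are given as descriptions. It had an adjusted p in 6 of 10 other settings in Glutamatergic cells, in 5 of 10 in cholinergic cells, and with 3 of 10 collections left out in turn. Of 9 genes that damp receptor signalling, 1 rose and 2 fell in cholinergic cells, where edgeR called 4.57% of all genes. Arrb1, a beta-arrestin, rose in cholinergic cells by 2.06 (SE 0.48, adjusted p = 0.000853). Rgs4 and Rgs10, which speed the shut-off of Gi proteins, fell there by 0.97 (SE 0.20, adjusted p = 7.81e-05) and 0.89 (SE 0.28, adjusted p = 0.0406). In Glutamatergic cells 1 of the 9 rose and 2 fell, where edgeR called 2.63% of all genes. Arrb1 rose there by 3.79 (SE 0.62, adjusted p = 3.52e-07, and 0.367 without the P31 female collection). Rgs7 and Rgs10 were called lower by edgeR (adjusted p of 0.046 and 0.0419) but not by DESeq2 (0.232 and 0.321). These 2 calls held in 3 of 10 other settings each, with adjusted p of up to 0.586 and 0.685, and were lost without the P29 male, P31 female, P33 female or P38 male collection (up to 0.402 and 0.434). Rgs10 rose in Noradrenergic5, the identity with Npy2r, by 1.25 (SE 0.22, adjusted p = 5.5e-06). It was the only 1 of the 9 called there, where edgeR called 1.41% of all genes. Rgs10 was counted in all 23 Noradrenergic5 cells at a median of 2.94 counts per 10000, against 0.952 in Noradrenergic3 cells. The cyclase Adcy1, the only 1 of 11 effector genes called in Noradrenergic5, rose by 1.63 (SE 0.42, adjusted p = 0.0105). In Noradrenergic3, where edgeR called 1.74% of all genes, only Rgs4 of the 9 was called, and it rose by 0.65 (SE 0.19, adjusted p = 0.0375). The fall of Rgs4 in cholinergic cells and the rise of Rgs10 in Noradrenergic5 kept their call in all 10 other settings and with each of 10 collections left out. Rgs10 in cholinergic cells was lost in 5 of 10 other settings, among them DESeq2 (0.128) and libraries of at least 2 cells (0.775), and without the P16 female, P30 female, P31 female, P33 female or P38 male collection (0.0648 to 0.373), and Rgs4 in Noradrenergic3 with DESeq2's size factors in edgeR (0.0785) and 6 of 10. Arrb1 was lost with cells thinned (0.109) and with libraries of at least 2 cells (0.742), and Adcy1 with those settings (0.559 and 0.0538) and without the P31 female collection (0.501). For Adcy5 DESeq2 gave no adjusted p in cholinergic cells and 0.299 in Glutamatergic cells.

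Unclassified cells held all 4 transcripts. Every one of the 85 had Npy, at a lowest, median and highest level of 0.31, 89.8 and 195 counts per 10000, and 69 of 85 were at or above the lowest Noradrenergic3 cell. They thus ranged over the levels of the Npy-rich and of the Npy-poor identities. Npy1r had a count in 29 of 85 (34.1%, 24.2 to 45.2%), and Npy2r and Npy5r in 4 each (4.71%, 1.30 to 11.6%). The 4 Unclassified cells with Npy2r held Npy at 10.3, 27.9, 90.7 and 107 counts per 10000, above the range of the Noradrenergic5 cells with Npy2r. Unclassified cells were shallower, at a median of 22977 counts, and their median noradrenergic sum was 107.

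The genes whose mean levels over the 8 identities were most like those of Npy were Psmb7, a proteasome subunit (Pearson's r = 0.97 over 8 identities), Ifi27 (0.95), Tenm2, a teneurin adhesion receptor (0.92), S100a6, a calcium-binding protein (0.90), and Chgb, a granin of dense-core vesicles (0.90). They were picked from 3029 genes by r alone. Psmb7 ran only from 4.43 (Ach2) to 5.27 (Noradrenergic2) counts per 10000, and Ifi27 from 6.79 (Noradrenergic5) to 10.3 (Noradrenergic2). Npy ran from 6.54 (Ach2) to 158 (Noradrenergic2). Tenm2, S100a6 and Chgb had ranges that were wider in proportion than those of Psmb7 and Ifi27. Those most opposite to Npy were Bcl2 (-0.92), Zfp445 (-0.92) and Cd9 (-0.91). Within the Noradrenergic3 cells the most alike were Hprt, Mdh1, Zwint, Ndufa4 and Tmc3, with Spearman's rho of 0.47 to 0.53. For Npy1r the nearest over identities were Psmc2, Pnck, Mtfr1l, Osbpl9 and Cdkn2d, with r of 0.94 to 0.97. Each of these genes had its highest mean in Glutamatergic cells, such as Cdkn2d at 4.37 counts per 10000, against 2.15 in Noradrenergic3. The Glutamatergic level of Npy1r itself rests on 8 counts, 7 of them in 1 cell. These correlations are descriptions over 8 means and over cells that share libraries, and Npy2r and Npy5r were too sparse for the measure.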

How the data were processed

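The deposited table held whole-number counts per gene and cell, not normalised, with reads placed on mm10 per the submitters' processing notes; the aligner, the counter and the annotation are not given in the sources used here. Every column was matched to 1 sample by its label. Levels are counts per 10000 counts of the cell. For tests, counts were summed over the cells of 1 identity and collection, giving 44 libraries of 1 to 43 cells. These were fitted with edgeR 4.0.16 (R 4.3.3) after trimmed-mean normalisation, by the robust quasi-likelihood test. A gene was tested if its counts summed to 20 or more over all libraries and it was detected in 3 or more of them. The model held identity plus collection as a block, with identities weighted equally. Benjamini-Hochberg adjustment was over all genes, with a threshold of 0.05. DESeq2 1.42.0 was an alternative. Same-collection libraries deviated together (r between 0.261 and 0.384 in 4 pairs, mean -0.07 in 20 pairs of different collections), and the collections are the labels' sex and age. Cells were thinned to 15000 counts where depth was equalised, which left out 20. The scripts were tested on simulated data. P-values of the main fit rest on the spread between collections, estimated over all identities together, and the labels do not give the animals of a collection. With each chip as a replicate they rest on the spread between chips. The labels do not say whether chips of the same collection share animals. Doublets were not called, since the labels state visual inspection of each capture site. The members, lists, tests and alternatives were chosen with earlier results of these data known. Genes outside the members were named where they passed the threshold within a list, or as the 5 most and 3 least alike. Loci came from GENCODE M21 and promoters from RefSeq, where all 4 members matched.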

Additional observations from a re-analysis of the deposited data

Results flagged for a closer look

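Among 18 combinations of a member and an identity with 4 to 7 collections, 8 had 1 collection far from the others by Dixon's criterion, which chance meets in about 1 of 20 groups of normally distributed values. In 3 of the 8 every other collection was at 0, so that any count meets the criterion. For Npy the collections were Noradrenergic4 in P33 females at 82.0 counts per 10000 (2 cells, next highest 18.6), Noradrenergic5 in P34 females at 55.8 (1 cell, next 4.60), Ach1 in P31 females at 57.6 (2 cells, next 0.718) and Ach2 in P16 females at 23.3 (1 cell, next 1.37). For Npy2r they were Noradrenergic2 in P31 females at 0.0385 (18 cells, the others at 0) and Noradrenergic5 in P30 females at 1.45 (1 cell, next 0.312). For Npy5r they were Noradrenergic1 in P31 females at 0.0884 and Noradrenergic4 in P38 males at 0.0556, each a single count with the other collections at 0. All 8 were the highest collection of their identity.

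Unclassified cells, which entered no comparison, held 17569 counts of Npy, 40 of Npy1r, 8 of Npy2r and 4 of Npy5r, each above the 3 counts that a count of 0 allows.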

How the results depend on the processing

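Npy differed among the 8 identities under all 10 alternatives that kept every collection (adjusted p 7.52e-08 to 0.0133) and with 9 of 10 collections left out in turn (7.5e-05 to 0.0472), but not without P29 males (0.0827). The 2 cells below are the Ach1 cell without Chat and Slc18a3 and the Glutamatergic cell with Th, picked after seeing the data by a rule; each was also the cell richest in Npy of its identity. Cholinergic against noradrenergic Npy was called with DESeq2 (-3.52), chips as replicates (-2.92) without the 2 cells (-6.55) and without the Ach1 cell alone (-6.55), and ran from -6.35 to -2.22 with a collection left out. Noradrenergic2 was called with chips (3.09), libraries of at least 2 cells (2.95), without the 2 cells (2.84), without the Ach1 cell (2.91) and without the Glutamatergic cell (3.06), and ran from 2.82 to 3.28 with a collection left out. Noradrenergic3 was called with chips (3.03), libraries of at least 2 cells (2.65), cells thinned (2.86), without the 2 cells (2.72), without the Ach1 cell (2.77) and without the Glutamatergic cell (2.82), and ran from 2.63 to 3.23. Noradrenergic5 was called with DESeq2 (-4.00), chips (-3.67), libraries of at least 2 cells (-4.67) and without the 2 cells (-3.86). Ach1 against Ach2 reversed with DESeq2 (-1.01), without the 2 cells (-5.72) and without the Ach1 cell (-5.89), and ran from -5.57 to 2.14. Noradrenergic1 reversed with libraries of at least 2 cells (0.12) and cells thinned (0.11), and ran from -0.82 to 0.32. Male against female Noradrenergic3 ran from -0.041 to 0.15. The cause was not tested, except that fewer cells or collections entered by construction. With no replicate block the Npy adjusted p among identities was 0.0133, of the member results only those of Npy5r (0.0117 in Noradrenergic2 and 0.015 among the identities) and of Npy in Noradrenergic3 over Noradrenergic5 (0.161) and over Ach1 (0.0513) changed their call, and of the list genes Pam (0.0735), Cpe (0.0744) and Rgs10 (0.104) in cholinergic cells, Pam in Noradrenergic2 (0.137), Rgs4 in Noradrenergic3 (0.0557) and Rgs7 (0.0557) and Rgs10 (0.36) in Glutamatergic cells lost theirs. Scaling by DESeq2's size factors within edgeR moved the median of all genes between cholinergic and noradrenergic cells to -0.04, against -0.20, and the genes called higher and lower to 338 and 219, against 251 and 277. Thinning moved 8 of 32 shares beyond their intervals. Depth limits the receptors, of which the most frequent, Npy1r, had 145 counts in 95 noradrenergic cells.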
